A study of Oryza sativa with 15 samples.

Results

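The aim was to describe genes called in newly regenerated plants and in a separate line several generations after its own callus step. Genes were selected with a differentially methylated region (DMR) in T0 regenerated rice (CK) and in a T4 line that had lost its transgene (SDWT). They had none in the T4 line that kept the transgene (*pOsNAR2.1-OsNAR2.1*). A gene was chosen by the calls in the 3 deposited DMR lists, by its ID without the feature suffix. Of 5284 genes with a DMR in any list, 200 met this rule. They held 218 regions of the CK list and 217 regions of the SDWT list. The calls that selected them rest on measured methylation levels, so the levels below are a description and no test was made of them. Absence from the *pOsNAR2.1-OsNAR2.1* list means that no DMR was called there, not that the level was unchanged, and the levels of that line at these regions were not used here.

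Whole-genome bisulfite sequencing (WGBS), in which unmethylated cytosines are converted and methylated ones are kept, was done on shoots of 10-day-old rice seedlings. There were 12 libraries, 3 of each group, all in the *japonica* cultivar of the wild type. WYJ7 was the wild type (Wuyunjing7, written wuyujing 7 in the sample labels). CK plants were the T0 generation, each regenerated from its own callus without a construct or a selection agent. SDWT plants (labelled FP) were the T4 generation of a transgene-free segregant of 1 heterozygous T0 plant, which had passed through callus, hygromycin selection and transformation. *pOsNAR2.1-OsNAR2.1* plants were T4 plants of a single line from the same T0 plant, with *OsNAR2.1*, which encodes a partner protein of nitrate transporters, under its own promoter. CK and SDWT thus share the callus step, and differ in generation, selection, transformation and the way in which the plants were raised, which cannot be told apart here. SDWT is 1 line, so its 3 libraries do not sample independent regeneration events. Each DMR list compared a line with the same 3 WYJ7 libraries, so a WYJ7 library that stands apart enters both lists.

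Plant cytosines are methylated in the CG, CHG and CHH contexts, where H is any base except G. Methylation in CG is copied onto the new strand after replication by a maintenance methyltransferase, and it can pass through meiosis, whereas CHH methylation must be set again, largely by a pathway guided by small RNAs. Methylation upstream of a gene, in particular over transposons, often goes with silencing, while CG methylation within exons is common in genes that are expressed. Plants regenerated from callus are known to carry altered methylation, and part of it is inherited by their progeny. The lists write CG as CpG and pool the other contexts as CpH. Expression was not measured in these libraries.

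Of the member regions, 216 of 218 in CK and 216 of 217 in SDWT were CpG regions. The lists place each region upstream of a gene, in an intron or in an exon. In CK, 159 regions (72.9%) were upstream, 44 (20.2%) in introns and 15 (6.88%) in exons. Over the 2847 CK regions with a gene these shares were 75.1%, 15.4% and 9.45%. In SDWT, 156 regions (71.9%) were upstream, 40 (18.4%) in introns and 21 (9.68%) in exons, beside 79.7%, 11.6% and 8.69% over the 1553 SDWT regions with a gene. The members were thus mostly genes with a change in the upstream window, as were the lists they came from. The regions were short, with a median width of 28 bp in CK (5 to 140) and 20 bp in SDWT (5 to 95), with a median of 4 CpGs in both lists. Most genes, 172, had 2 regions over both lists together, 21 had 3 and 7 had 4. In 138 genes every region was upstream, in 32 every region was in an intron, in 11 every region was in an exon, and 19 had more than 1 feature.

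Members lay on each of the 12 chromosomes, from 7 on chromosome 4 to 25 on chromosome 3. As a share of all genes with a DMR on the chromosome, they ranged from 1.66% on chromosome 4 to 5.80% on chromosome 11. Of the IDs, 130 were RAP locus IDs and 70 were EPlOSAG IDs of a second annotation source. The IDs matched no gene of the RefSeq annotation at hand, so they are given without gene names or functions.

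In the CK list, 95 of the 218 member regions (43.6%) had a higher mean level in CK (hyper-DMRs) and 123 a lower one (hypo-DMRs). The share of hyper-DMRs over all 5122 CK regions was 28.6%, and over the 2847 CK regions with a gene it was 30.7%. Among the members, hyper-DMRs were 70 of 141 regions in genes whose CK and SDWT regions overlapped. They were 25 of 77 in the other member genes. The mean level over the hyper-DMRs was calculated in each library, and averaged 29.9% ± 0.662 (SD, n = 3 libraries) for the wild type and 60.1% ± 0.403 (SD, n = 3) for the CK plants. Over the hypo-DMRs the wild type averaged 62.6% ± 2.097 (SD, n = 3), whereas CK plants averaged 32.2% ± 3.82 (SD, n = 3). The median absolute difference between the mean of CK and the mean of WYJ7 was 29.8 points (quartiles 21.2 and 38.5), beside 27.9 over the whole list. Gains and losses were of similar size. The lists were made with the authors' own difference. The one recalculated here from library levels was under 20 points in 49 of 218 member regions, beside 1124 of 5122 over the list. The 2 regions on either side of 20 points had differences of 19.8 and 20.1 points.

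In the SDWT list, 116 of the 217 member regions (53.5%) were hyper-DMRs and 101 were hypo-DMRs. Over all 2731 SDWT regions the share of hyper-DMRs was 51.6%, and over the 1553 with a gene it was 53.0%, both near that of the members. Over the hyper-DMRs the wild type averaged 30.0% ± 0.739 (SD, n = 3), whereas SDWT plants averaged 61.6% ± 1.67 (SD, n = 3). Over the hypo-DMRs the averages were 56.7% ± 4.86 (SD, n = 3) for the wild type and 26.7% ± 1.82 (SD, n = 3) for SDWT plants. Gains and losses were again of similar size. The median absolute difference was 29.8 points (quartiles 23.4 and 37.3), beside 27.7 over the list. The difference was under 20 points in 34 of 217 member regions, beside 667 of 2731 over the list. The member regions next to that value had 19.9 and 20.1 points.

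**Figure D1:**
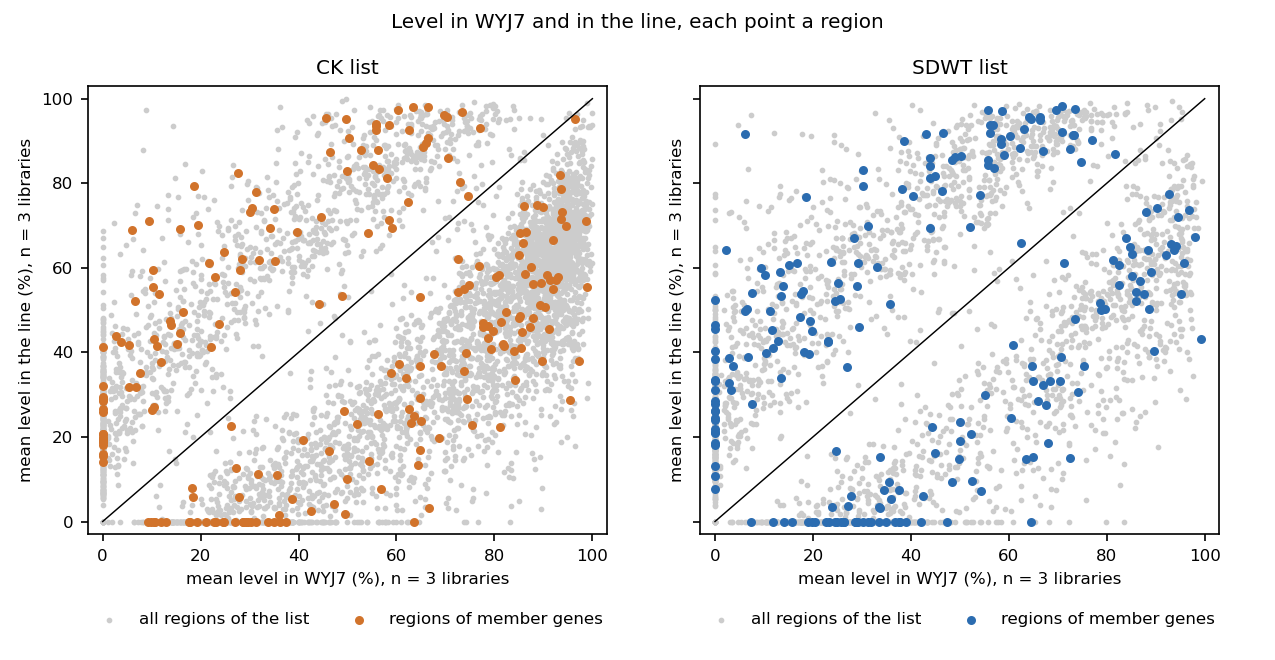
Mean methylation level in WYJ7 (x axis, %) and in the line (y axis, %), each a mean of 3 libraries, for all regions of the CK list (left) and the SDWT list (right) in grey and for member regions in colour. The median WYJ7 level was 51.1% for member regions and 68.7% for all regions of the CK list, and 38.6% and 40.7% in the SDWT list.

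The members of the CK list started from a lower wild-type level than the list did. The WYJ7 mean had a median of 51.1% in the CK member regions and 68.7% over the CK list. Of the CK member regions, 46 had a WYJ7 mean over 80%, none of which was a hyper-DMR, and 54 had one under 20%, of which 43 were hyper-DMRs. Between these levels lay 118 regions, with 52 hyper-DMRs. Over the CK list, 38.7% of the regions had a WYJ7 mean over 80% and 16.4% had one under 20%. Hyper-DMRs were 21 of 1981 regions at the high end of the list and 694 of 840 at the low end. Between these levels they were 751 of 2301 regions of the list, beside the 52 of 118 member regions. A level cannot pass 0% or 100%. A region called for a large change thus has little room to rise from a high level or to fall from a low one. The part of this limit in the direction by starting level was not tested, and most CK member regions lay between the ends. In SDWT, 60 member regions had a WYJ7 mean under 20% (54 hyper-DMRs), 128 lay between (61 hyper-DMRs) and 29 had one over 80% (1 hyper-DMR). Over the SDWT list, 29.5% of the regions were under 20%, 54.8% lay between and 15.7% were over 80%. Hyper-DMRs were 666 of 806, 716 of 1496 and 27 of 429 of these list regions. Some regions were listed at exactly 0 in a whole group. All 3 CK libraries were at 0 in 26 of 218 regions (360 of 5122 over the list) and all 3 SDWT libraries in 30 of 217 (343 of 2731). All 3 WYJ7 libraries were at 0 in 18 CK regions (373 over the list) and in 22 SDWT regions (349 over the list). The read depth behind a level is unknown, so a 0 is listed as such, with no upper limit.

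The wild-type libraries varied among themselves at many member regions. The highest and the lowest WYJ7 library were a median of 15.5 points apart in the CK member regions, beside 9.98 over the list, and 18.7 points apart in the SDWT member regions, beside 16.3. They were over 30 points apart in 49 CK regions (22.5%, beside 13.3% over the list) and in 65 SDWT regions (30.0%, beside 25.5%). The libraries of the line and of WYJ7 did not overlap in 132 of 218 CK regions (60.6%), near the 61.4% of the whole CK list, and in 155 of 217 SDWT regions (71.4%), near the 69.1% of the SDWT list. In the other regions the range of the line and that of WYJ7 overlapped.

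The median SD over the 3 libraries was 13.5 points in the CK member regions and 7.49 points in the SDWT member regions, beside 14.7 and 8.03 points over the lists. These are different regions in each list, and at the 68 positions shared by both the medians were 8.48 points in CK and 7.37 in SDWT. In CK, all 3 libraries were shifted by at least 20 points, in the direction of the region, in 89 regions (40.8%), beside 31.1% of the list. CK-1 and CK-3 without CK-2 did so in 50 regions (22.9%), beside 31.6% over the list. The other pairs did so less often. CK-1 and CK-2 did so in 21 regions (9.63%, beside 6.17% of the list) and CK-2 and CK-3 in 10 (4.59%, beside 6.09%). CK-2 alone did so in 19 regions (8.72%, beside 9.22%) and CK-3 alone in 8 (3.67%, beside 4.43%). CK-1 alone did so in 5 (2.29%, beside 4.18%), and none of them in 16 (7.34%, beside 7.18%). CK-2 was the library that most often stood apart. It lay on the other side of the WYJ7 mean in 26 member regions (11.9%), against 6 for CK-1 (2.75%) and 8 for CK-3 (3.67%). Over the whole CK list these shares were 13.0%, 2.64% and 2.91%, so CK-2 stood apart in the list as it did in the members. In the hypo-DMRs the mean level was 30.0% in CK-1, 30.1% in CK-3 and 36.6% in CK-2, while in the hyper-DMRs the 3 libraries lay between 59.7% and 60.5%. With CK-2 left out and differences of at least 20 points required in every list, 147 genes met the rule, against 146 with it, and 43.9% of their CK regions were hyper-DMRs, against 42.2%.

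In SDWT, all 3 libraries differed from the WYJ7 mean by at least 20 points in 120 regions (55.3%), beside 45.2% of the SDWT list. The pair of SDWT-1 and SDWT-3 did so in 26 regions, SDWT-1 and SDWT-2 in 19, SDWT-2 and SDWT-3 in 12, and no library in 13. The median change in the direction of the region was 31.2 points in SDWT-1, 29.8 in SDWT-2 and 28.8 in SDWT-3. In CK the same median was 31.5 points in CK-1, 27.1 in CK-2 and 30.1 in CK-3. The medians lay closer together in SDWT than in CK, where CK-2 was the lowest. Over the whole lists they were 30.4, 21.6 and 30.1 points in CK-1, CK-2 and CK-3. In SDWT-1, SDWT-2 and SDWT-3 they were 27.7, 27.8 and 27.5 points there. The contrast was thus also that of the lists and was not particular to the members. Because 3 plants of 1 line and 3 regenerated plants were compared, this is a difference between these libraries and was not tested.

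**Figure D2:**
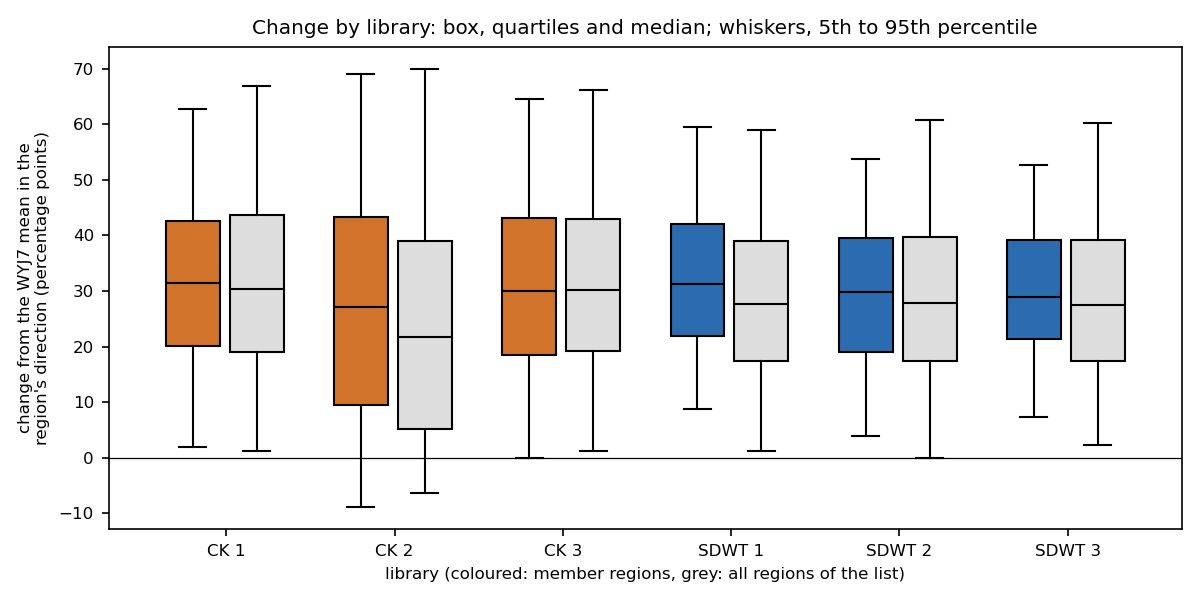
Change of each library relative to WYJ7 (mean of 3), taken in the direction of the region (y axis, percentage points), for member regions (coloured boxes) and all regions of the list (grey boxes), with CK and SDWT libraries on the x axis. The box gives the quartiles and the median and the whiskers the 5th and the 95th percentile, and CK 2 had the lowest median, 27.1 points in member regions and 21.6 over the CK list.

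Regions of both lists overlapped by at least 1 bp in 131 of the 200 genes (65.5%), and the other 69 genes carried separate regions. Overlap was counted in the member genes only, so this share has no background and cannot be called particular to them. There were 134 overlapping pairs, of which 68 had the same start and end in both lists and 66 overlapped in part. In the genes without overlap, the smallest distance between a CK region and an SDWT region had a median of 651 bp (quartiles 154 and 1356) and ranged from 25 to 19631 bp. It was at most 500 bp in 31 genes and at most 100 bp in 11. In 56 of the 69 genes the separate regions lay in the same feature, and in 13 they lay only in different features.

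Genes with overlapping regions differed from the genes with separate regions in the spread of the wild type, and in the CK list also in its level. The WYJ7 mean in the CK regions had a median of 35.7% in the genes with overlap (141 regions) and 70.3% in those without (77 regions). Over the whole CK list it was 68.7%. In the SDWT regions this median was 38.2% with overlap and 39.7% without, so the levels were close there. In the CK regions the WYJ7 libraries were a median of 17.9 points apart in the genes with overlap and 8.66 points apart in those without. Over the CK list they were 9.98 points apart. In SDWT the distance between WYJ7 libraries was 21.8 points (145 regions) and 13.0 points (72 regions), beside 16.3 over the SDWT list. Of the CK regions, 70 of 141 were hyper-DMRs in the genes with overlap and 25 of 77 in those without. Over the CK list 1466 of 5122 regions (28.6%) were, so the genes without overlap were the nearer to the list. Of the SDWT regions, 80 of 145 and 36 of 72 were hyper-DMRs, beside 1409 of 2731 (51.6%) over the SDWT list. The spread of the shared WYJ7 libraries enters both lists, and its part in the overlap was not tested.

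The following genes rank first among those with overlapping regions by the smaller of the differences in CK and in SDWT, and are given with hyper-DMRs first and hypo-DMRs after them. Positions are on IRGSP-1.0, as listed. The upstream windows of these genes were up to about 2 kb long, and the lists do not state the strand of the gene.

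Upstream of OS07G0144500, a region of 3 CpGs at 2255972 to 2255981 on chromosome 7 was nearly unmethylated in the wild type. The level was 0%, 6.67% and 11.4% in WYJ7, and 61.5%, 72.3% and 72.8% in CK. In SDWT it was 92.4%, 91.6% and 91.0%. The 3 groups did not overlap, and CK lay between WYJ7 and SDWT. The mean difference from WYJ7 was 62.8 points in CK and 85.6 points in SDWT, the largest of any member region. A region farther on in the same window, at 2256705 to 2256718, moved the other way in SDWT, with 0%, 42.5% and 44.0% in WYJ7 and 0% in every SDWT library, so that 1 WYJ7 library was at the level of SDWT.

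The region upstream of OS10G0478450 (chromosome 10, 17946810 to 17946829) was at 15.6%, 16.7% and 23.4% in WYJ7. It was at 96.1%, 46.8% and 95.3% in CK and at 75%, 90.6% and 64.5% in SDWT. Both lines lay above WYJ7 in each library and overlapped each other, with CK-2 below the other CK libraries. Upstream of OS12G0518200 (chromosome 12, 20143035 to 20143052 in CK), WYJ7 was at 0%, 8.89% and 19.3%, CK at 77.1%, 83.3% and 52.5%, and SDWT, from position 20143036, at 83.6%, 68.8% and 27.5%. SDWT-3 was close to the highest WYJ7 library, while the other SDWT libraries were far above it.

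EPlOSAG00000034704 and EPlOSAG00000051268 carried hyper-DMRs at identical positions in both lists. In EPlOSAG00000034704 (chromosome 11, 7589965 to 7589979, upstream), WYJ7 was at 23.0%, 7.78% and 0%, CK at 54.3%, 33.8% and 78.6%, and SDWT at 41.2%, 53.3% and 80.1%. In EPlOSAG00000051268 (chromosome 6, 22721053 to 22721061, upstream), WYJ7 was at 0%, 8.26% and 11.4%, CK at 48.7%, 51.5% and 56.2%, and SDWT at 50.7%, 51.8% and 48.3%. In the latter the 6 line libraries were even and of intermediate level, between 48.3% and 56.2%.

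Upstream of OS03G0625300 (chromosome 3, 23780601 to 23780635), the wild type itself was spread widely, at 69.5%, 21.0% and 0%. CK was at 92.9%, 58.2% and 68.3%, so that CK overlapped WYJ7, and SDWT at 86.2%, 83.7% and 79.5% did not. OS07G0616200 had a pair of overlapping hyper-DMRs in 1 upstream window on chromosome 7. At 25399933 to 25399956, WYJ7 was at 26.1%, 45.8% and 21.8%, CK at 88.8%, 58.9% and 86.5%, and SDWT at 68.9%, 79.97% and 61.0%. At 25400219 to 25400287 in CK, WYJ7 was at 0%, 3.66% and 37.5% and CK at 66.8%, 35.1% and 40.5%. The SDWT call began at 25400238 and was at 53.2%, 57.7% and 66.0%, with WYJ7 at 0%, 4.33% and 35.4% over that shorter stretch. Every line library of the first region lay above WYJ7, and in the second region CK-2 lay within the range of WYJ7.

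Upstream of EPlOSAG00000019637 (chromosome 11, 13117298 to 13117359 in CK), WYJ7 was at 4.55%, 6.65% and 0% and CK at 36.1%, 78.8% and 12.4%. The SDWT region, from 13117345, was at 52.9%, 57.3% and 39.5%, with WYJ7 at 13.6%, 19.95% and 0%. CK was the most variable group there, and CK-3 was near the wild type. OS03G0770700 (chromosome 3, upstream) was at 21.7%, 0% and 25.7% in WYJ7 and at 88.1%, 33.3% and 86.4% in CK from 31921530 to 31921573. The SDWT region from 31921571 to 31921585 touched only its end, with WYJ7 at 55.0%, 25.9% and 64.1% and SDWT at 84.4%, 90.5% and 81.4%. The overlap was of a few bases, and the levels of the lists are therefore not those of the same cytosines.

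In 3 further hyper-DMRs the wild type was at intermediate level and both lines were near full methylation. Upstream of EPlOSAG00000042265 (chromosome 3, 27768005 to 27768054), WYJ7 was at 66.7%, 42.7% and 58.0%, CK at 95.4%, 91.3% and 95.6%, and SDWT at 99.3%, 94.6% and 98.2%. Upstream of EPlOSAG00000005564 (chromosome 11, 17835731 to 17835754 in CK), WYJ7 was at 51.9%, 74.4% and 41.4% and CK at 94.4%, 93.7% and 92.4%. The SDWT region of that gene ended at 17835753 and was at 93.3%, 90.7% and 91.1%, with WYJ7 at 51.2%, 62.5% and 15.6%. Upstream of EPlOSAG00000028550 (chromosome 7, 24731691 to 24731708), WYJ7 was at 61.8%, 44.0% and 45.1%, CK at 87.4%, 94.4% and 90.3%, and SDWT at 86.5%, 86.9% and 86.1%. In each of them the line libraries lay close together and above every WYJ7 library.

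Among the hypo-DMRs, the intron region of OS03G0650000 (chromosome 3, 25203827 to 25203839) was at 72.7%, 85.7% and 32.2% in WYJ7, at 0% in all 3 CK libraries, and at 21.5%, 22.9% and 0% in SDWT. No methylation was listed in any CK library, and SDWT had a low level in a pair of libraries. Upstream of OS02G0790500 (chromosome 2, 33567712 to 33567720), WYJ7 was at 33.3%, 50.2% and 58.5%, CK at 12.5%, 0% and 0%, and SDWT at 0% in each library. Both lines lay below every WYJ7 library.

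The region upstream of EPlOSAG00000007921 (chromosome 2, 21023310 to 21023326) had an even level in the wild type, at 63.1%, 64.8% and 67.2%. CK was at 14.6%, 7.53% and 49.4% and SDWT at 25.6%, 20% and 0%. Upstream of EPlOSAG00000035186 (chromosome 10, 21194837 to 21194872 in CK), WYJ7 was at 39.7%, 55.3% and 68.0% and CK at 10.6%, 32.6% and 0%. The SDWT part, from 21194855, was at 0%, 33.8% and 21.8%, with WYJ7 at 49.6%, 69.1% and 85.1%. Both lines lay below every WYJ7 library in these genes, with CK-3 nearest to the wild type in the former and CK-2 and SDWT-2 in the latter.

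OS05G0298300 had an upstream hypo-DMR on chromosome 5 at 13313713 to 13313725, with WYJ7 at 72.4%, 83.7% and 70.2%, CK at 21.4%, 21.9% and 25%, and SDWT at 40.0%, 35.4% and 34.6%. The libraries of a group were close together there, and the 3 groups did not overlap, with SDWT between CK and WYJ7. A second CK region of this gene, at 13313462 to 13313496, was at 0% in each WYJ7 library and at 21.4%, 0% and 38.1% in CK. The CK-2 library was at the wild-type value in that region.

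EPlOSAG00000011078 (chromosome 1, upstream) was the member with a lower CpH level in CK. At 1577197 to 1577216 the CpH level was 27.6%, 26.8% and 28.9% in WYJ7 and 8.82%, 0% and 8.33% in CK. The CpG level at 1577201 to 1577255 was 62.1%, 36.7% and 49.8% in WYJ7 and 0%, 5.47% and 0% in CK. In SDWT the CpG region from 1577232 was at 0% in each library, with WYJ7 at 53.5%, 19.8% and 39.3%. Both contexts were thus lower in CK in the same window, and the SDWT list held the CpG region only.

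Upstream of OS07G0456500 (chromosome 7, 15881742 to 15881794 in CK), WYJ7 was at 76.2%, 81.4% and 87.4% and CK at 58.3%, 0% and 67.6%. The SDWT region from 15881778 was at 34.4%, 35.6% and 15.6%, with WYJ7 at 53.1%, 58.6% and 85.8%. CK-2 carried most of the CK difference. Upstream of EPlOSAG00000050506 (chromosome 10, 146851 to 146857), WYJ7 was at 5.56%, 73.5% and 48.6%, CK at 0%, 0% and 7.29%, and SDWT at 0%, 18.2% and 0%. WYJ7-1 was as low as the lines there, so neither line was separate from WYJ7.

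**Figure D3:**
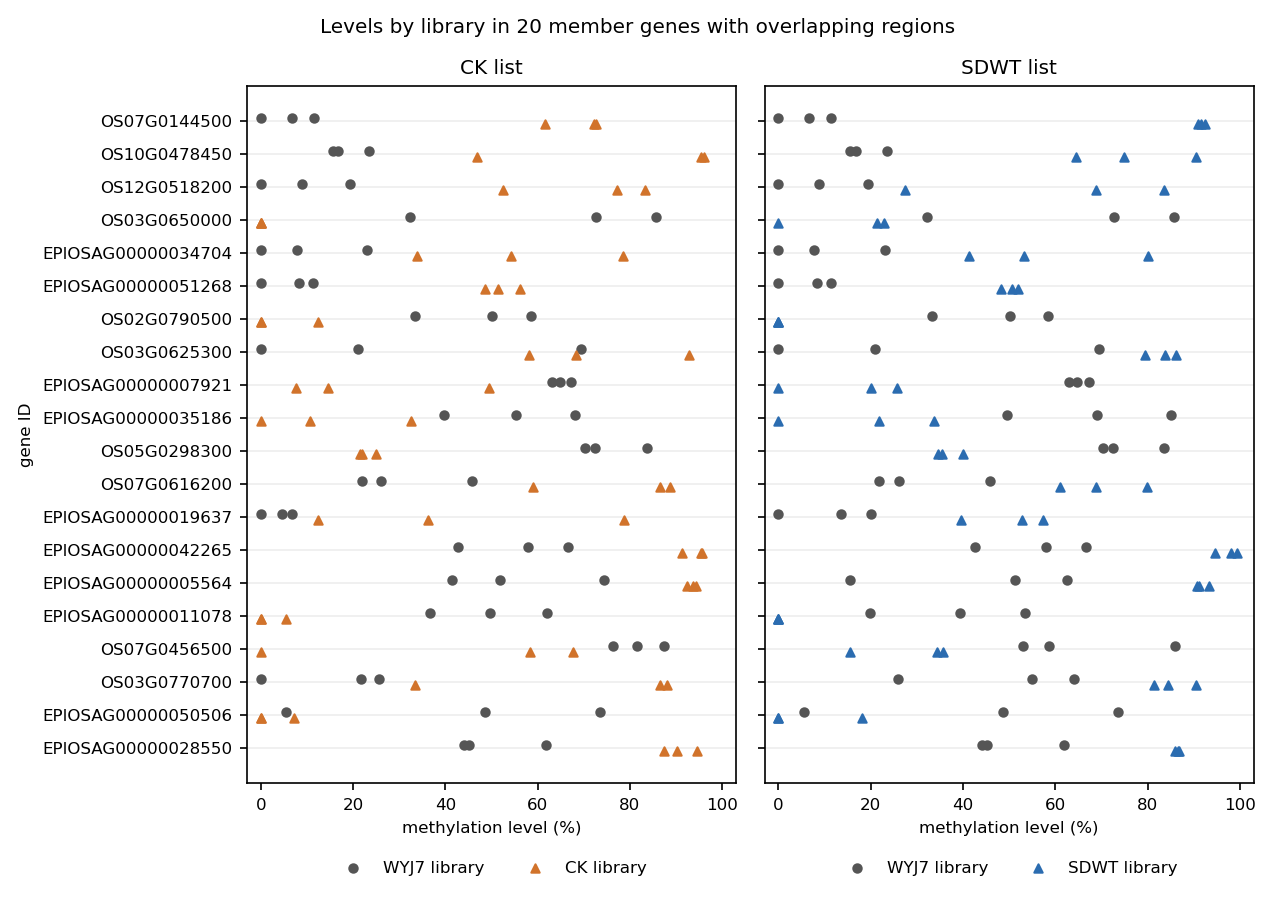
Methylation level (x axis, %) in each library for the 20 genes with overlapping regions that rank first by the smaller of the CK and SDWT differences (y axis, in rank order), with WYJ7 in grey circles and CK (left) or SDWT (right) in coloured triangles. In OS07G0144500 the highest WYJ7 library was at 11.4% and the lowest CK and SDWT libraries at 61.5% and 91.0%, while in EPlOSAG00000050506 the WYJ7 libraries ran from 5.56% to 73.5% across the levels of both lines.

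The 68 regions with the same start and end in both lists allow CK and SDWT to be set side by side against the same WYJ7 levels. The WYJ7 values were equal in 68 of 68. The listed number of CpGs differed between the lists in some of them. It was 4 in CK and 5 in SDWT for OS06G0624950, and 3 and 4 for OS10G0188166. The mean level was higher in SDWT than in CK in 34, lower in 28 and equal in 6, in which all 6 line libraries were at 0. The median of SDWT minus CK was 1.33 points, and that of its absolute value was 9.63 points (quartiles 4.03 and 23.0). The difference was under 10 points in 35 regions and at least 20 points in 19. The CK and SDWT libraries did not overlap in 19 regions. Counts at shared positions were made for the member genes only, so they cannot be called particular to the members. The median SD over libraries was 8.48 points in CK, 7.37 in SDWT and 11.7 in WYJ7, so in these regions the wild type was the most variable group. Over the whole CK list the medians were 14.7 points in CK and 5.30 in WYJ7, and over the SDWT list 8.03 in SDWT and 8.58 in WYJ7. The 68 regions were called in both lists against the same WYJ7 libraries, and the part of this choice in their order was not tested. The WYJ7 libraries were a median of 22.9 points apart in them.

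In 9 of these regions CK and SDWT lay on opposite sides of the WYJ7 mean, with every library of the one line above it and every library of the other below. The region upstream of OS05G0243200 (chromosome 5, 8696698 to 8696730) was at 0% in each CK library, at 88.5%, 78.7% and 71.2% in SDWT, and at 0%, 48.9% and 41.9% in WYJ7. The intron region of OS10G0188166 (chromosome 10, 6089443 to 6089447) was at 0%, 0% and 16.0% in CK, at 98.1%, 72.4% and 99.2% in SDWT, and at 0%, 58.2% and 57.6% in WYJ7. WYJ7-1 was at the level of CK in both genes. The intron region of OS06G0624950 (chromosome 6, 25161924 to 25161941) was at 7.50%, 8.97% and 6.92% in CK and at 80.7%, 78.2% and 92.2% in SDWT. WYJ7 was at 63.3%, 73.2% and 34.2% there, so the 3 groups did not overlap. These genes were chosen after their values were seen, for the size of the difference between CK and SDWT.

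**Figure D4:**
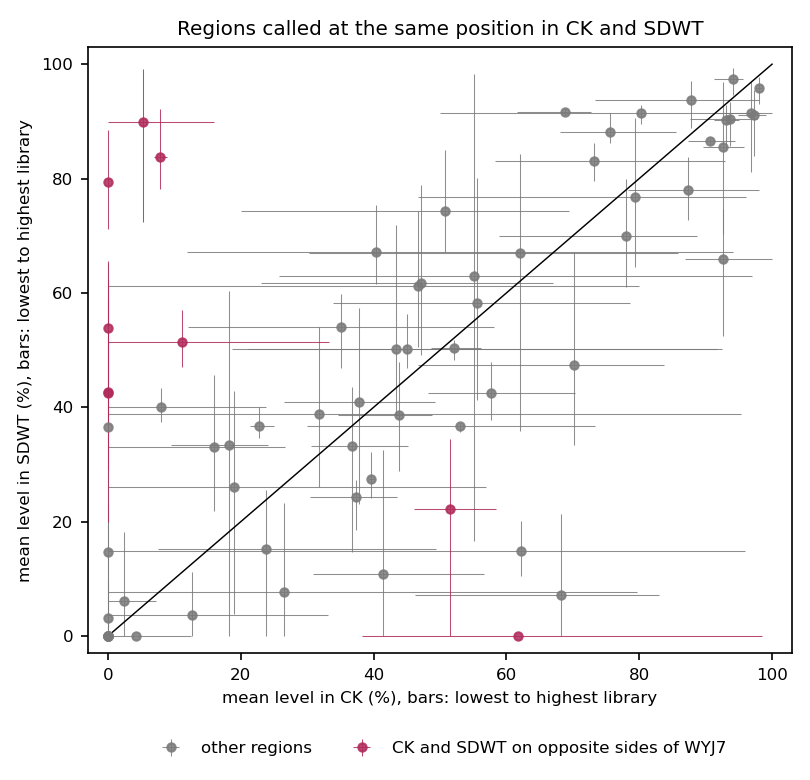
Mean methylation level in CK (x axis, %) and SDWT (y axis, %) of the 68 regions with the same position in both lists, each bar running from the lowest to the highest of 3 libraries, with the line of equal levels. The 9 regions in which CK and SDWT lay on opposite sides of WYJ7 are coloured, and 35 of the 68 regions had means less than 10 points apart.

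Of the genes with separate regions, OS03G0416500 ranked first by the smaller of its differences in CK and SDWT. In its upstream window on chromosome 3, a region at 17293650 to 17293711 was at 85.5%, 70.0% and 87.8% in WYJ7 and at 19%, 48.2% and 0% in CK. A neighbouring region at 17293492 to 17293523 was at 0% in each WYJ7 library and at 85.0%, 47.4% and 24.9% in SDWT. CK was thus lower in a methylated stretch and SDWT higher in an unmethylated one of the same window.

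OS11G0607900 had 3 intron hypo-DMRs in CK and an intron hyper-DMR in SDWT on chromosome 11. In the CK region at 23466516 to 23466523, WYJ7 was at 84.4%, 100% and 88.8% and CK at 17.5%, 82.5% and 36.4%. The region at 23472810 to 23472823 was at 77.4%, 94.8% and 89.4% in WYJ7 and at 56.6%, 41.6% and 39.5% in CK. In the third CK region, at 23463553 to 23463565, CK-2 was at 0% and the other CK libraries at 57.1% and 48.3%, with WYJ7 between 54.7% and 63.3%. The SDWT region at 23466351 to 23466394 was at 8.82%, 18.8% and 18.0% in WYJ7 and at 60.4%, 61.9% and 59.7% in SDWT. The CK levels thus varied between libraries, while the SDWT levels were even.

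Upstream of EPlOSAG00000013558 (chromosome 12), CK was at 98.1%, 93.3% and 95.1% and WYJ7 at 46.3%, 50.6% and 39.8% at 21451286 to 21451316. SDWT was at 60.3%, 56.9% and 66.0% and WYJ7 at 15%, 18% and 17.3% at 21452199 to 21452235. Both lines were higher than each WYJ7 library, in different stretches of the window. A further CK region at 21452510 to 21452516 was at 0% in each WYJ7 library and at 20%, 0% and 26.7% in CK.

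Upstream of OS12G0263800 (chromosome 12), CK was at 33.3%, 38.9% and 62.6% and WYJ7 at 95.6%, 81.8% and 79.7% at 9318907 to 9318949. SDWT was at 0% in each library and WYJ7 at 14.4%, 72.2% and 39.7% at 9319859 to 9319897. In an intron of the gene, at 9312101 to 9312138, SDWT-1 alone was low, at 23.3%, with the other SDWT libraries at 80.8% and 91.3% and WYJ7 between 89.7% and 100%. Upstream of EPlOSAG00000034283 (chromosome 2), CK was at 41.8%, 47.9% and 32.6% and WYJ7 at 78.4%, 75.01% and 84.8% at 1833951 to 1833995. SDWT was at 0% in each library and WYJ7 at 34.7%, 42.9% and 39.6% at 1833698 to 1833723. In the upstream regions of both genes the lines were below every WYJ7 library.

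Some of the genes with 4 regions had hyper-DMRs and hypo-DMRs side by side, whereas OS07G0616200 had hyper-DMRs only and OS12G0263800 hypo-DMRs only. In the exon of OS06G0579600 on chromosome 6, the stretch at 22595185 to 22595207 was at 0% in each WYJ7 library, at 21.0%, 24.1% and 9.52% in CK and at 60.4%, 0% and 40.1% in SDWT. Within the same exon CK had a hypo-DMR at 22595532 to 22595542 (WYJ7 81.9%, 75.6% and 85.1%, and CK 42.4%, 71.5% and 61.3%). SDWT had a hyper-DMR at 22595270 to 22595275, where WYJ7 ran from 9.94% to 76.7% and SDWT was at 92.3%, 87.2% and 72.6%. The SDWT libraries overlapped WYJ7 in both of their regions, and the CK libraries did not.

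Upstream of OS07G0153000 (chromosome 7), CK had hypo-DMRs at 2804151 to 2804162 and at 2804272 to 2804348. In the first, WYJ7 was at 93.6%, 88.1% and 74.1% and CK at 46.7%, 65.7% and 33.3%. SDWT was at 100%, 95.2% and 97.7% at 2804104 to 2804113, with WYJ7 at 90.9%, 70.0% and 59.6%, and at 55.4%, 50.8% and 68.3% at 2804438 to 2804451, with WYJ7 at 77.8%, 85.6% and 92.2%. Line and WYJ7 libraries did not overlap in these 3 regions, whereas in the second CK region CK-3, at 77.6%, lay within the WYJ7 range of 45.5% to 92.3%.

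OS05G0545900 (chromosome 5) had a pair of SDWT hyper-DMRs in an exon. At 27104189 to 27104249 WYJ7 was at 46.9%, 62.3% and 80.3% and SDWT at 95.4%, 92.3% and 90.8%. In the adjoining intron, at 27104377 to 27104404, WYJ7 was at 0%, 22.7% and 16.0%, CK at 0% in each library and SDWT at 59.1%, 20% and 48.9%. WYJ7-1 was at the level of CK and SDWT-2 within the range of WYJ7 there. OS02G0227900 (chromosome 2) had an intron region at 7182575 to 7182607 in which the wild type was even, at 37.0%, 35.6% and 34.4%. CK was at 0%, 33.3% and 0% and SDWT at 50.3%, 47.0% and 57.0%. CK-2 was close to WYJ7 there, and every SDWT library lay above the wild type. The other regions of the gene were hypo-DMRs. The CK region in an intron at 7180231 to 7180270 had a mean difference of -32.4 points. The SDWT region upstream at 7186426 to 7186451 had one of -26.9 points.

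The widest member region was the CpH region of EPlOSAG00000043614, which spans an exon on chromosome 12. In CK it ran from 19620236 to 19620375 (140 bp, 28 sites), with WYJ7 at 13.7%, 12.8% and 19.2% and CK at 50.6%, 36.7% and 39.0%. The SDWT list held its end, from 19620337 (11 sites), with WYJ7 at 19.1%, 26.1% and 31.5% and SDWT at 49.0%, 57.2% and 51.9%. It was the member with a CpH region in both lists, and each line library lay above each WYJ7 library. In SDWT the widest member region was upstream of OS05G0500300 (chromosome 5, 24622951 to 24623045, 95 bp and 13 CpGs), with WYJ7 at 85.7%, 87.1% and 85.3% and SDWT at 45.8%, 59.3% and 51.4%. The SDWT region with the most CpGs, 14, was upstream of EPlOSAG00000045033 (chromosome 7, 14820531 to 14820577). There SDWT was at 64.6%, 81.8% and 62.1% and WYJ7 at 58.0%, 37.9% and 36.2%, while over the CK region from 14820507 WYJ7 was at 61.9%, 43.0% and 42.8% and CK at 32.9%, 32.4% and 12.9%. The lines lay on either side of the wild type in that gene.

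By the rule no member has a DMR of its own in the *pOsNAR2.1-OsNAR2.1* list. The nearest DMR of that list was within 1000 bp of 2 CK member regions (0.917%, beside 13.9% of the CK list) and of 4 SDWT member regions (1.84%, beside 20.4% of the SDWT list). None overlapped a member region. The rule leads to low shares here, since it leaves out the genes with a called region in the transgenic line. For comparison, 102 genes had a DMR in all 3 lists, 200 genes in SDWT and *pOsNAR2.1-OsNAR2.1* only and 315 genes in CK and *pOsNAR2.1-OsNAR2.1* only.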

How the data were processed

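The 12 WGBS libraries (3 per group) were used, and the 3 MeDIP samples were not analysed here. The authors mapped reads to IRGSP-1.0 with Bismark 0.9.0, kept uniquely mapped reads, removed low-depth cytosines and used methylKit and eDMR to call DMRs, with WYJ7 as the control of every line. The deposited level in percent is the authors' mean over the cytosines of a region in a library, not normalized between libraries. The deposited region width and number of CpGs were also used. The lists also hold the authors' difference, p-value, q-value, number of differentially methylated cytosines and direction label, which were not used. Differences are the mean of 3 line libraries minus the mean of 3 WYJ7 libraries. This replaced the deposited difference that had been planned for the alternatives. The number of table columns matched to no sample was 0. Python 3.11.15, numpy 2.4.6 and pandas 2.3.3 were used, and the functions were tested on simulated data. The members, lists and rules were chosen with earlier results of these data known. Named genes were the 20 with overlapping regions and the 5 without that had the largest value of the smaller difference of CK and SDWT, 5 with the most regions, and those with the widest region or most CpGs. Alternatives were stricter differences and CpG numbers, CpG or upstream regions only, overlapping regions only and each replicate left out. Those using the ID with its feature, and WYJ7 libraries within 20 points of each other, were added after seeing the data.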

Additional observations from a re-analysis of the deposited data

Results flagged for a closer look

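In 9 regions with the same position in both lists, every CK library lay on one side of the WYJ7 mean and every SDWT library on the other. The difference between the lines was not tested, and such regions were not counted outside the member genes. The mean level of SDWT minus CK was 84.6 points in OS10G0188166, 79.5 in OS05G0243200, 75.9 in OS06G0624950 and 53.8 in OS07G0645300. It was 42.7 points in OS05G0545900, 42.6 in OS08G0518300 and 40.3 in OS02G0227900. SDWT was the lower line in the other regions, with -61.7 points in OS12G0508266 and -29.3 points in OS11G0659700. In OS12G0508266 the WYJ7 libraries were at 0%, 8.70% and 86.9%, and in OS11G0659700 at 0%, 51.5% and 81.3%, so the side of the WYJ7 mean rests there on libraries that differed widely. In OS08G0518300 WYJ7 was at 15.7%, 28.8% and 24.7%, CK at 0% in each library and SDWT at 29.2%, 62.5% and 36.1%. In OS07G0645300 WYJ7 was at 0%, 13.9% and 39.1%, CK at 0% in each library and SDWT at 65.7%, 57.2% and 38.6%.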

How the results depend on the processing

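The number of member genes was 200. It was 67 with differences of at least 30 points in all 3 lists (62 of them among the 200), 20 with at least 5 CpGs, 131 with overlapping regions only and 96 with WYJ7 libraries within 20 points of each other. It was 199 with CpG regions only, 140 with upstream regions only, 187 with the ID and its feature, and 146 with differences of at least 20 points (137 of them among the 200), or 134 to 148 when 1 replicate was left out of that setting. The share of hyper-DMRs in CK was 39.7% to 49.6% under all the settings tried, and in SDWT was 66.7% with at least 5 CpGs. The median absolute difference in CK was 38.6 points with at least 30 points, 33.7 with at least 20, 33.2 to 36.9 with 1 replicate left out, and 27.5 with WYJ7 libraries within 20 points. In SDWT it was 38.6, 31.7 and 31.4 to 34.1 points in the first 3 of these settings, and 27.7 with at least 5 CpGs. A minimum difference raises the median by its construction. No paired analysis was possible because the results come from no test. The lists hold called regions only, and the depth of a region is unknown, so levels from few reads cannot be told apart from precise ones.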
